A study of Homo sapiens with 6 samples.

Results

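The histone genes measured here are 52 of the 19488 genes named in an array study of HCT116 cells, a human cell line established from a colorectal carcinoma and titled HCT116 +/+ in the samples. They were chosen by symbol: probe sets that the array annotation ties to 1 gene symbol beginning with HIST1H, HIST2H, HIST3H or HIST4H, or to 1 of 10 named variant genes. This gave 43 replication-dependent genes on 119 probe sets (6 of class H1, 11 of H2A, 15 of H2B, 7 of H3 and 4 of H4) and 9 variant genes on 112 probe sets. The variant gene H1F0 had 0 probe sets with 1 symbol, no probe set began with HIST4H, and 13 of the 52 genes rested on 1 probe set. Cells were treated for 12 h with Nutlin-3 (spelled Nutlin 3R in the sample labels), with 5FU (5-fluorouracil), or kept as control, which the sample labels give as none and the design text as DMSO. Each group had 2 Human Exon 1.0 ST arrays, doses were not stated, and since no label calls the arrays separate cultures, the p-values cover only the spread between arrays, which may be technical. Nutlin-3 blocks the binding of MDM2 to the transcription factor p53, and 5FU is a pyrimidine analogue whose metabolites inhibit thymidylate synthase and enter RNA and DNA.

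Histones package DNA: an octamer of H2A, H2B, H3 and H4 forms the nucleosome core, and H1 binds the linker DNA between cores. Replication-dependent histone genes lie in clusters, lack introns, and are transcribed mainly in S phase under NPAT and cyclin E with CDK2. Their mRNAs end in a stem-loop bound by SLBP instead of a poly(A) tail, and they are degraded when DNA synthesis stops. Variant histone genes lie alone, are mostly polyadenylated and are expressed through the cell cycle.

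Promoters of 4 replication-dependent genes that fell after both drugs are shown with that of the variant H2AX so that the sequence elements of the family can be seen beside the values. They are RefSeq windows of assembly GRCh38.p14, from 250 bases before to 50 after the annotated start, written 5′ to 3′ on the gene's strand. Capitals mark the motif CCAAT (reverse complement, ATTGG), the TATA-box letters TATAAA (written TTTATA on the other strand), and 7 letters of the octamer element bound by POU2F1, ATGCAAA (written TTTGCAT on the other strand). No motif of the 3 contains another, and each was searched on both strands. The H2BC14 window is chr6:27814772-27815071 on the + strand, that of H2AC21 is chr1:149887916-149888215 on the - strand, that of H1-4 is chr6:26156079-26156378 on the + strand, that of H1-2 is chr6:26056421-26056720 on the - strand, and that of H2AX is chr11:119095416-119095715 on the - strand.
H2BC14: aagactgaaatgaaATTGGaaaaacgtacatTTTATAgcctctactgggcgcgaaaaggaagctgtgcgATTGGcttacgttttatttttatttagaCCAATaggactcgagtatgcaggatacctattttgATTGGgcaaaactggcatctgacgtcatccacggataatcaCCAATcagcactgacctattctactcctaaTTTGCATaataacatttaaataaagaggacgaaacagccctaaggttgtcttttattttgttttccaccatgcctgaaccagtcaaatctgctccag
H2AC21: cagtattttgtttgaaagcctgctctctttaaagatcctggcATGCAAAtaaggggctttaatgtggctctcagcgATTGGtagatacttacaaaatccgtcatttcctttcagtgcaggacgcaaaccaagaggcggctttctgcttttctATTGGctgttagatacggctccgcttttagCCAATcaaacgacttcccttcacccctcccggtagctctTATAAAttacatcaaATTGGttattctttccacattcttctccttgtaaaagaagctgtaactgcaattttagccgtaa
H1-4: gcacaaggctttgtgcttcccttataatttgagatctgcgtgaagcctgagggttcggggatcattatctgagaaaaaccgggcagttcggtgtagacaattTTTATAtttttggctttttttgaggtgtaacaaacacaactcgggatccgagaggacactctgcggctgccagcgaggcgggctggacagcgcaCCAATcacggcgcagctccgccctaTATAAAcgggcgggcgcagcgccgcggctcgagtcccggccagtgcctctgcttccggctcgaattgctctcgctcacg
H1-2: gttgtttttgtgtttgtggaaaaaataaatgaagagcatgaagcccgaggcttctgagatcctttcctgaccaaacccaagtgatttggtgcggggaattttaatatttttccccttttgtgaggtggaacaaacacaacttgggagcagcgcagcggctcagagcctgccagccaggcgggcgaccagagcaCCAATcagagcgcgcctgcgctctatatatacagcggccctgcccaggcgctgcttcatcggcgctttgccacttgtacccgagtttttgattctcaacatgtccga
H2AX: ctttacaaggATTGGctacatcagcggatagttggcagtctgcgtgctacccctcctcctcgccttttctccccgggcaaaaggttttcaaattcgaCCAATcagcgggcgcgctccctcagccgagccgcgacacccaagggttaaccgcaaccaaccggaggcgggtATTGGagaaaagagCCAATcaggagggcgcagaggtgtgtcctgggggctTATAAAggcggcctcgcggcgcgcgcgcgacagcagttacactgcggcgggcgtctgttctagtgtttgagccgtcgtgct

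A window was found for 49 of the 52 genes. CCAAT occurred on either strand in 38 of 40 replication-dependent windows (95%), against 35.7% of the windows of all 27305 genes, taking the first window listed for each. TATAAA occurred in 67.5% of replication-dependent windows and in 12.0% of all windows. The octamer letters ATGCAAA were present in 8 of 10 H2A windows and 11 of 15 H2B windows and in 0 of the 6 H1, 5 H3 and 4 H4 windows, against 4.51% of all windows. The 9 variant windows held CCAAT in 6, TATAAA in 4 and ATGCAAA in 1. These are letter matches and not measured binding sites, and windows of divergent gene pairs overlap, so the counts are not independent.

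All values that follow are deposited log2 intensities, averaged over the probe sets of a gene, and each difference is a drug group minus control unless another pair is named. A gene was called when its Benjamini-Hochberg adjusted p over all 19488 genes was below 0.05 in limma, with the 3 groups in 1 model. Throughout, a gene is said to have fallen or risen only where it was called. Array medians lay between 4.73 and 4.78, arrays correlated at 0.967 to 0.991 across genes, and the residual SD had a median of 0.149 over genes. Both p53 targets examined rose with both drugs: CDKN1A, the cell-cycle inhibitor p21, by 1.68 after Nutlin-3 and 1.44 after 5FU, and MDM2, the p53 ubiquitin ligase, by 1.86 after Nutlin-3 and 1.57 after 5FU (adjusted p between 0.0157 and 0.0402). Of 13 colonic epithelial markers, 9 lay above the upper quartile of all probe-set means (6.45) on all 6 arrays, against 0 of 5 blood, 0 of 3 endothelial and 1 of 7 fibroblast markers. The summary level of each marker list moved little: its lowest and highest array medians were 7.25 and 7.72 for colonic, 4.86 and 5.30 for blood, 5.14 and 5.39 for endothelial and 5.40 and 5.74 for fibroblast markers, and their part in the histone results was not tested.

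After Nutlin-3, replication-dependent histone genes were lower than in control. Of 43 genes, 9 fell and 0 rose, or 20.9% lower, where 0.549% of all genes were called lower and 0.216% higher; 25 of the 43 had an unadjusted p below 0.05, against 9.48% of all genes. At least 2-fold lower values were found for 16 of the 43, against 1.18% of all genes. Both Nutlin-3 arrays lay below both control arrays for 27 of 43 (62.8%), against 17.3% of all genes, and above both for 2, against 16.4% of all genes. The median log2 difference was -0.71 over the 43 genes and -0.54 over all 52, with a median of -0.00 over all genes. In these bulk samples, fewer cells that express a histone mRNA and less of it per cell cannot be told apart.

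After 5FU, replication-dependent histone genes were also lower than in control. Both drugs were set against the same 2 control arrays, so the comparisons are not independent. Of 43 replication-dependent genes, 4 fell and 0 rose, or 9.30% lower, where 0.0513% of all genes were called lower and 0.164% higher; 23 of the 43 had an unadjusted p below 0.05, against 10.1% of all genes. Values at least 2-fold lower were found for 17, against 0.246% of all genes. Both 5FU arrays lay below both control arrays for 26 (60.5%), against 18.2% of all genes, and above both for 1, against 19.2% of all genes. The median difference was -0.61 over the 43 genes and -0.47 over all 52.

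**Figure D1:**
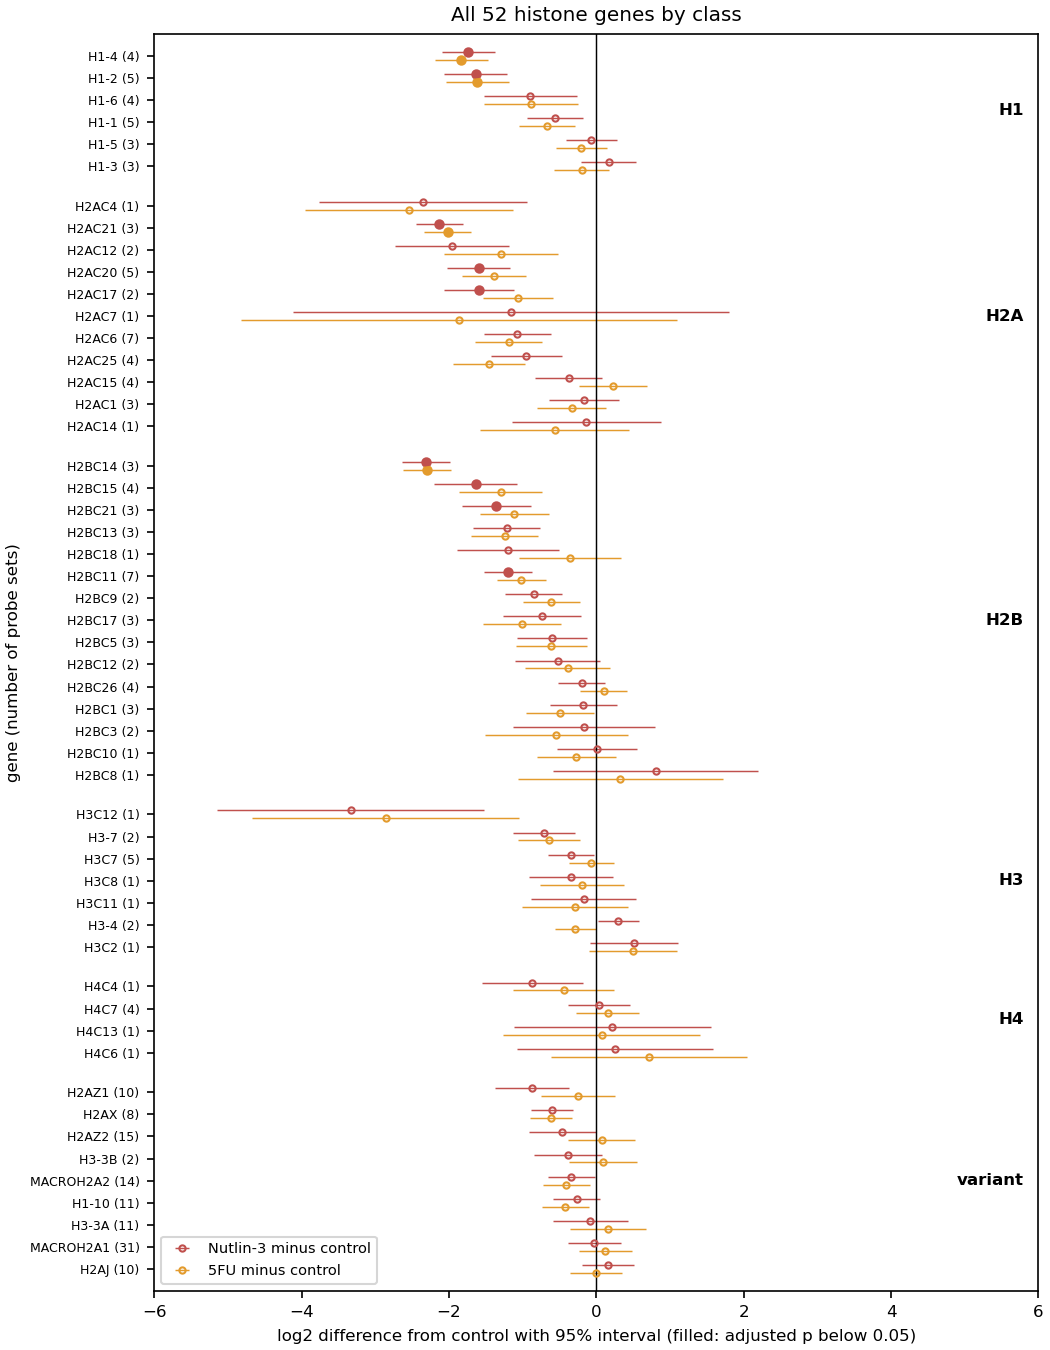
Log2 difference from control (x axis) of each of the 52 histone genes, by class, with the number of probe sets in brackets and 95% limma intervals; Nutlin-3 is drawn above 5FU and filled points have an adjusted p below 0.05. The 9 genes called after Nutlin-3 and the 4 called after 5FU belong to H1, H2A and H2B, while genes on 1 probe set such as H2AC7 have the widest intervals.

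In class H1, the linker histones, H1-4 and H1-2 fell after both drugs. H1-4, a major somatic H1, read 10.42 and 10.18 after Nutlin-3, 10.19 and 10.22 after 5FU, and 12.18 and 11.90 in control. All 4 drug arrays lay well below both control arrays, a difference of -1.74 after Nutlin-3 (95% interval -2.10 to -1.38, 3.33-fold lower, adjusted p = 0.0157) and -1.83 after 5FU (3.56-fold lower, adjusted p = 0.0277). H1-2, a somatic H1 that also makes polyadenylated transcripts, read 7.51 and 7.74 after Nutlin-3, 7.63 and 7.65 after 5FU, and 9.48 and 9.03 in control. The drug arrays were again close together and below control, by 1.63 for Nutlin-3 (3.10-fold lower, adjusted p = 0.0235) and 1.61 for 5FU (3.06-fold lower, adjusted p = 0.0396).

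The other 4 H1 genes were not called. The testis H1 gene H1-6 read 4.89 and 4.10 after Nutlin-3, 4.68 and 4.31 after 5FU, and 5.39 and 5.39 in control, and both drug groups lay below control (differences of -0.89 for Nutlin-3 and -0.89 for 5FU, adjusted p = 0.309 and 0.319). H1-1 read 4.66 and 4.82 after Nutlin-3, 4.73 and 4.53 after 5FU, and 5.46 and 5.14 in control, lower on every drug array (-0.56 for Nutlin-3 and -0.67 for 5FU, adjusted p = 0.274 and 0.208). By contrast H1-3 read 4.56 and 4.75 after Nutlin-3, 4.35 and 4.23 after 5FU, and 4.33 and 4.65 in control, and drug and control arrays overlapped. H1-5 read 4.09 and 4.29 after Nutlin-3, 3.94 and 4.17 after 5FU, and 4.18 and 4.33 in control, where the 5FU arrays lay just below control and the Nutlin-3 arrays overlapped it. The H1-3 and H1-5 means over the 6 arrays lay below the median of all probe sets (4.73).

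Among H2A genes 3 of 11 were called lower after Nutlin-3 and 1 of 11 after 5FU, against 0.549% and 0.0513% of all genes. Called or not, 11 of the 11 had a difference below 0 after Nutlin-3 and 10 after 5FU. The class medians were -1.16 after Nutlin-3 and -1.29 after 5FU. H2AC21, of the chromosome 1 cluster, read 9.02 and 8.96 after Nutlin-3, 9.14 and 9.06 after 5FU, and 11.24 and 11.00 in control. Drug and control arrays were about 2 log2 units apart, with differences of -2.13 for Nutlin-3 (95% interval -2.45 to -1.81, 4.38-fold lower, adjusted p = 0.00786) and -2.02 for 5FU (4.05-fold lower, adjusted p = 0.0111). H2AC20, its neighbour in that cluster, read 9.94 and 9.75 after Nutlin-3, 10.06 and 10.04 after 5FU, and 11.68 and 11.20 in control. It fell after Nutlin-3 (-1.60, 3.03-fold lower, adjusted p = 0.0247), while the 5FU difference of -1.39 did not pass (adjusted p = 0.0542). H2AC17 read 4.99 and 4.96 after Nutlin-3, 5.36 and 5.65 after 5FU, and 6.82 and 6.31 in control, lowest after Nutlin-3 and intermediate after 5FU. Its difference passed for Nutlin-3 (-1.59, adjusted p = 0.0292) and not for 5FU (-1.06, adjusted p = 0.136).

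The H2A genes that were not called held both large and small differences. H2AC12 read 5.83 and 5.79 after Nutlin-3, 6.35 and 6.60 after 5FU, and 8.30 and 7.23 in control, and its control arrays stood 1 log2 unit apart (differences -1.96 for Nutlin-3 and -1.29 for 5FU, adjusted p = 0.0638 and 0.235). H2AC4, on 1 probe set, differed by -2.35 after Nutlin-3 and -2.54 after 5FU with intervals that reached -0.95 and -1.13, and no call was made (adjusted p = 0.202 and 0.205). The uncalled H2AC6 (-1.07 for Nutlin-3 and -1.19 for 5FU) and H2AC25 (-0.95 for Nutlin-3 and -1.46 for 5FU) had non-overlapping groups for both drugs. H2AC15 read 4.23 and 4.45 after Nutlin-3, 4.94 and 4.95 after 5FU, and 4.97 and 4.46 in control, so only the Nutlin-3 arrays lay below control. For H2AC1, a testis H2A gene, the values were 4.59 and 4.68 after Nutlin-3, 4.23 and 4.71 after 5FU, and 4.97 and 4.64 in control, which overlap.

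Among H2B genes 4 of 15 were called lower after Nutlin-3 and 1 of 15 after 5FU, against 0.549% and 0.0513% of all genes. Called or not, 13 of the 15 had a difference below 0 after Nutlin-3 and 13 after 5FU. The class medians were -0.74 after Nutlin-3 and -0.61 after 5FU. H2BC14 read 6.69 and 6.48 after Nutlin-3, 6.68 and 6.51 after 5FU, and 8.85 and 8.94 in control. Arrays of the 2 drugs overlapped and all 4 lay below both controls, with differences of -2.31 for Nutlin-3 (95% interval -2.63 to -1.98, 4.95-fold lower, adjusted p = 0.00736) and -2.30 for 5FU (4.91-fold lower, adjusted p = 0.00763). H2BC15 read 7.02 and 6.27 after Nutlin-3, 7.01 and 6.96 after 5FU, and 8.25 and 8.31 in control, and passed for Nutlin-3 only (-1.64, adjusted p = 0.045, against -1.30 and adjusted p = 0.128 for 5FU). Its Nutlin-3 arrays stood farther apart than its other pairs. H2BC21, of the chromosome 1 cluster, read 7.16 and 7.25 after Nutlin-3, 7.32 and 7.58 after 5FU, and 8.82 and 8.31 in control (-1.36 for Nutlin-3 with adjusted p = 0.0455, and -1.11 for 5FU with adjusted p = 0.121). H2BC11 read 4.92 and 4.88 after Nutlin-3, 5.03 and 5.14 after 5FU, and 6.23 and 5.96 in control (-1.20 for Nutlin-3 with adjusted p = 0.0248, and -1.02 for 5FU with adjusted p = 0.0587). For both genes every drug array lay below both control arrays. Both depended on the processing: over the settings run, the Nutlin-3 difference ran from -3.48 to -0.49 for H2BC11 and from -1.89 to -0.65 for H2BC21. Apart from fits with an array left out, H2BC11 was called after Nutlin-3 in 6 of 8 other settings and H2BC21 in 5 of 8, against 8 of 8 for H2BC14.

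**Figure D2:**
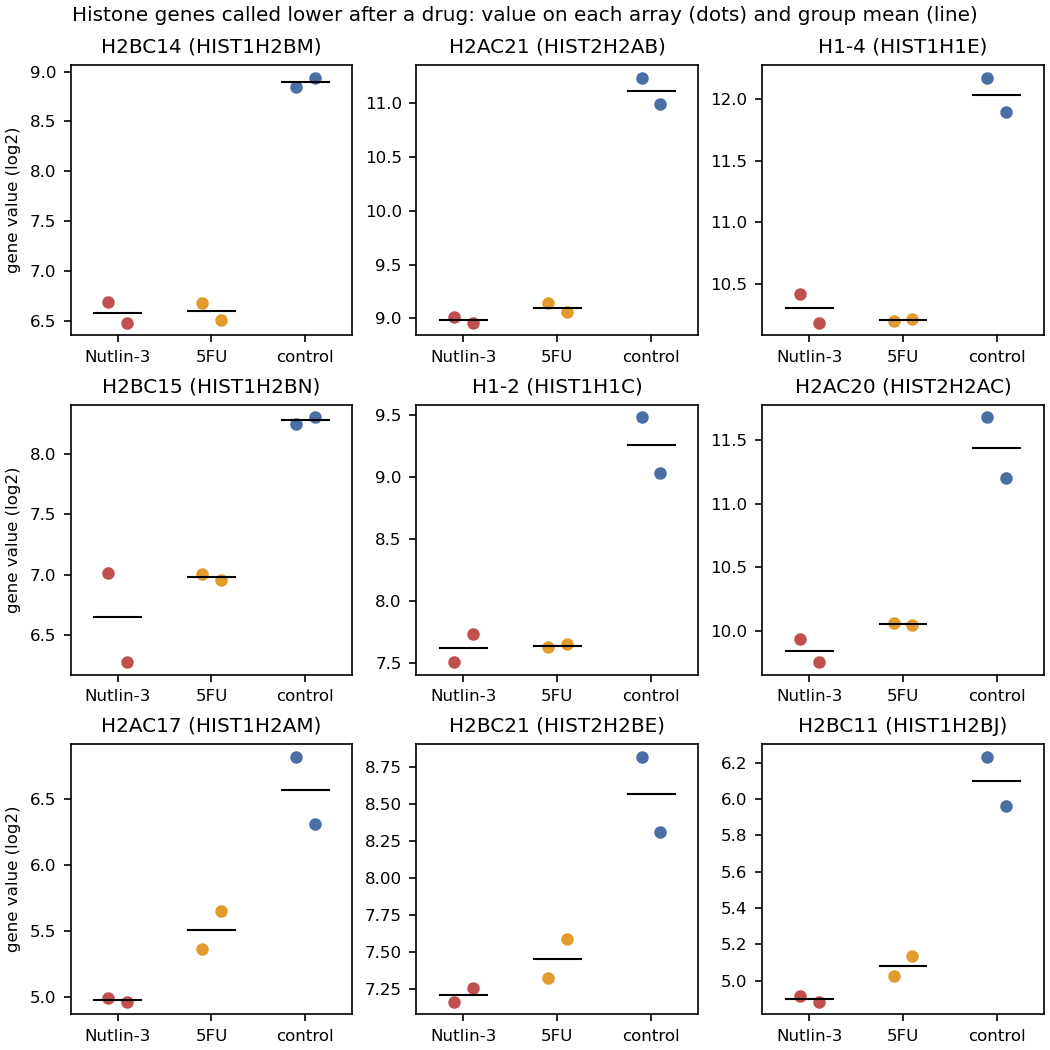
Gene value in log2 units (y axis, own scale in each panel) on each Nutlin-3, 5FU and control array for the 9 histone genes called lower after a drug; dots are arrays and lines are group means. In all 9 panels the 4 drug arrays lie below both control arrays, as for H2BC14 with 6.69, 6.48, 6.68 and 6.51 against 8.85 and 8.94.

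The other 11 H2B genes were not called after Nutlin-3. H2BC13 read 7.93 and 8.20 after Nutlin-3, 7.95 and 8.11 after 5FU, and 9.51 and 9.05 in control, without passing (-1.21 for Nutlin-3 and -1.24 for 5FU, adjusted p = 0.0547 and 0.0873). H2BC9 (-0.85 for Nutlin-3 and -0.61 for 5FU), H2BC17 (-0.74 for Nutlin-3 and -1.01 for 5FU) and H2BC5 (-0.60 for Nutlin-3 and -0.61 for 5FU) had drug arrays below both controls and no call. H2BC26, which pairs with H2AC25, read 4.98 and 5.03 after Nutlin-3, 5.33 and 5.29 after 5FU, and 5.34 and 5.07 in control. H2BC10 read 2.68 and 2.35 after Nutlin-3, 2.22 and 2.25 after 5FU, and 2.82 and 2.20 in control, on 1 dim probe set, and each drug group overlapped control. H2BC8, also on 1 dim probe set, had the highest difference of all members after Nutlin-3, 0.80 with a 95% interval from -0.59 to 2.20.

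No H3 or H4 gene was called. H3-7, on 2 probe sets, read 8.02 and 7.84 after Nutlin-3, 8.05 and 7.95 after 5FU, and 8.42 and 8.86 in control, with every drug array below control (-0.71 for Nutlin-3 and -0.64 for 5FU, adjusted p = 0.194 and 0.268). H3C12, on 1 probe set, had the lowest difference after each drug, -3.33 for Nutlin-3 and -2.86 for 5FU, with control arrays of 7.46 and 4.78 and wide intervals (-5.14 to -1.53 and -4.67 to -1.05). H3C7 read 5.25 and 5.24 after Nutlin-3, 5.44 and 5.59 after 5FU, and 5.50 and 5.67 in control. H3C8 read 4.42 and 5.15 after Nutlin-3, 5.03 and 4.84 after 5FU, and 5.06 and 5.19 in control. Their differences from control lay between -0.34 and -0.07. H3-4, the testis H3 gene, read 5.65 and 5.64 after Nutlin-3, 5.05 and 5.08 after 5FU, and 5.41 and 5.29 in control, so that the drugs lay on opposite sides of control (0.30 for Nutlin-3 and -0.28 for 5FU, adjusted p = 0.487 and 0.483).

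Of the 4 H4 genes, H4C4 read 6.83 and 7.43 after Nutlin-3, 7.24 and 7.86 after 5FU, and 8.21 and 7.79 in control, on 1 probe set. Nutlin-3 arrays lay below control and 5FU arrays overlapped it (-0.87 for Nutlin-3 and -0.44 for 5FU, adjusted p = 0.375 and 0.74). H4C7 read 4.52 and 4.37 after Nutlin-3, 4.61 and 4.51 after 5FU, and 4.64 and 4.18 in control, and H4C13 read 4.14 and 4.41 after Nutlin-3, 3.57 and 4.70 after 5FU, and 3.26 and 4.86 in control. Both sets overlap. With the other H4 gene on 1 probe set, H4C6 (0.25 for Nutlin-3 and 0.72 for 5FU, intervals from -1.07 to 1.58 and -0.61 to 2.05), 3 of the 4 H4 genes showed no direction at this precision.

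The replication-dependent genes and probe sets were also split by brightness. Brightness is the mean over all 6 arrays, control included, so a feature can count as bright through its control level. The mean over the 6 arrays was at or below the median of all probe-set means (4.73) for 18 of the 43 genes, 11 of them on 1 probe set, and 0 of these 18 were called. Their median difference was -0.15 after Nutlin-3 and -0.28 after 5FU, while the 25 brighter genes had medians of -0.95 after Nutlin-3 and -1.02 after 5FU. By single probe set, 42 of 119 lay above the upper quartile, and 38 of these (90.5%) had all 4 drug arrays below both control arrays, against 6.60% of all probe sets above the upper quartile. The 42 had median differences of -1.93 for Nutlin-3 and -1.90 for 5FU. With brightness taken from the 4 drug arrays alone, a choice made after seeing the data, 38 replication-dependent probe sets lay above the same level. Of these, 34 had all 4 drug arrays below both control arrays, against 6.19% of all probe sets above it, and their median differences were -1.89 for Nutlin-3 and -1.78 for 5FU. Back with brightness by all 6 arrays, the count was 13 of 35 between the median and the upper quartile, and 6 of 42 below the median. Over all probe sets at any brightness the share was 6.37%.

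Class by class, all 15 bright H2A probe sets and all 13 bright H2B probe sets had the 4 drug arrays below both controls. The counts were 8 of 10 for H1, 2 of 3 for H3 and 0 of 1 for H4, against 6.60% of all probe sets above the upper quartile. Bright again means by the mean over all 6 arrays, control included. The classes held 24 H1, 33 H2A, 42 H2B, 13 H3 and 7 H4 probe sets at any brightness. The gene H2BC14 shows how an average can mix bright and dim probe sets. Its brightest probe set read 9.86 and 9.72 after Nutlin-3, 9.44 and 9.36 after 5FU, and 12.76 and 12.90 in control, and its second read 6.41 and 6.43 after Nutlin-3, 6.51 and 6.38 after 5FU, and 10.27 and 10.01 in control. The third was dim and flat, at 3.80 and 3.30 after Nutlin-3, 4.11 and 3.80 after 5FU, and 3.51 and 3.91 in control. When all 1411399 probe sets were fitted singly with limma, 0 passed in any comparison (79107, 77142 and 87300 at an unadjusted p below 0.05 for Nutlin-3 against control, 5FU against control and Nutlin-3 against 5FU).

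**Figure D3:**
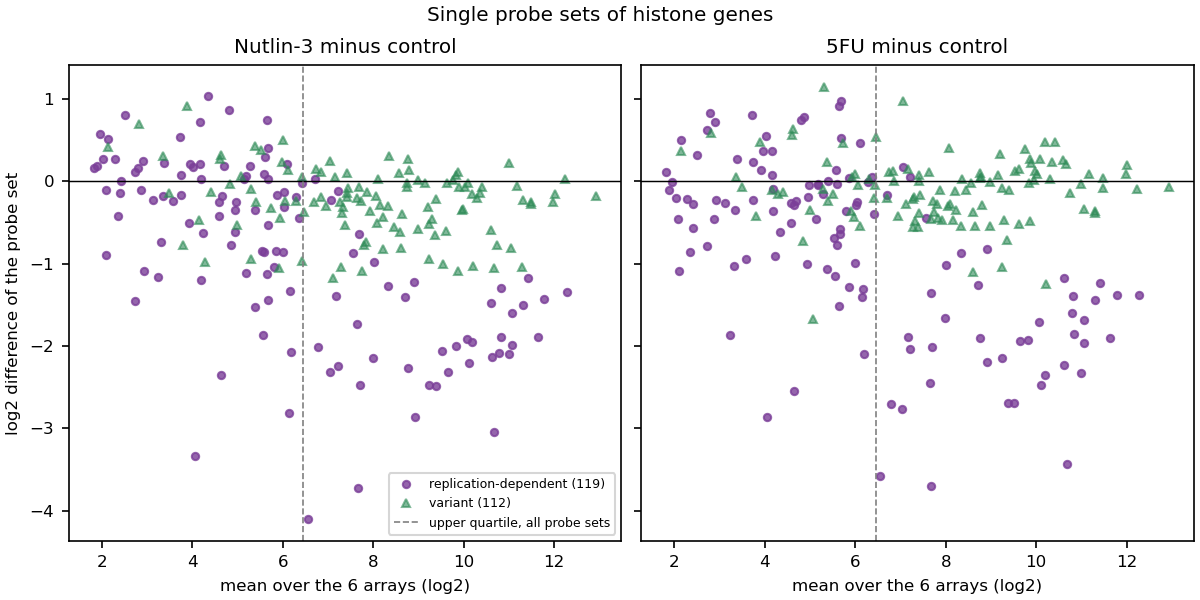
Log2 difference from control (y axis) of each histone probe set with 1 symbol against its mean over the 6 arrays (x axis, log2), for Nutlin-3 (left) and 5FU (right); circles are 119 replication-dependent and triangles 112 variant probe sets, and the dashed line is the upper quartile of all probe sets, 6.45. To the right of the line the replication-dependent probe sets have medians of -1.93 after Nutlin-3 and -1.90 after 5FU and the variant probe sets of -0.24 after Nutlin-3 and -0.08 after 5FU.

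With probe sets kept only above the median and at least 2 a gene, 32 of the 52 genes remained, 23 of them replication-dependent. The filter uses all arrays, so a gene can pass through its control level and the members that pass are not all members. Of the 32, 12 were called lower after Nutlin-3 (0.858% of 17841 genes) and 9 after 5FU (0.118%), and 0 between the drugs (0.572% of those genes called lower). H2AC12 (-1.96, adjusted p = 0.0411), H2AC6 (-1.65, adjusted p = 0.0272) and H2BC13 (-1.21, adjusted p = 0.0386) were added for Nutlin-3. H2AC20, H2AC25, H2AC6, H2BC11 and H2BC15 were added for 5FU, with adjusted p from 0.0265 to 0.0451. The difference of H2BC14 became -3.38 after Nutlin-3 (10.4-fold lower) and -3.56 after 5FU (11.8-fold lower) once its dim probe set was dropped.

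Another 158 probe sets carry several symbols, all of histone genes, and cannot be given to 1 gene. They add classes that the single-symbol probe sets cover poorly. Above the upper quartile, the 26 that name several H4 genes had array medians of 7.97 and 7.92 after Nutlin-3, 8.17 and 8.24 after 5FU, and 10.047 and 9.996 in control, and 18 of them had all 4 drug arrays below both controls, against 6.60% of all probe sets above the upper quartile. The 3 that name several H3 genes had medians of 7.97 and 8.09 after Nutlin-3, 8.49 and 8.73 after 5FU, and 11.09 and 10.61 in control. Those shared among H2A genes (23) had median differences of -2.17 after Nutlin-3 and -1.85 after 5FU, those shared by H2A and H3 genes (13) of -2.47 after Nutlin-3 and -2.00 after 5FU, and those shared among H2B genes (6) of -2.64 after Nutlin-3 and -1.85 after 5FU. The 27 shared by H3-3A and H3-3B, which encode the variant H3.3, had median differences of -0.21 after Nutlin-3 and 0.09 after 5FU, and 0 of them had all drug arrays below both controls. The upper quartile was taken on the mean over all 6 arrays, control included. Without that cut, the 52 H4 probe sets had median differences of -0.50 after Nutlin-3 and -0.32 after 5FU. Of the 52, 22 had all 4 drug arrays below both controls, against 6.37% of all probe sets. Medians after Nutlin-3 and 5FU were -1.48 and -0.69 for 6 H3 and -1.65 and -1.37 for 36 H2A probe sets. They were -1.81 and -1.35 for 12 H2B and -2.23 and -1.82 for 17 H2A and H3 probe sets. No test was made on these sets, whose probe sets share sequence.

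**Figure D4:**
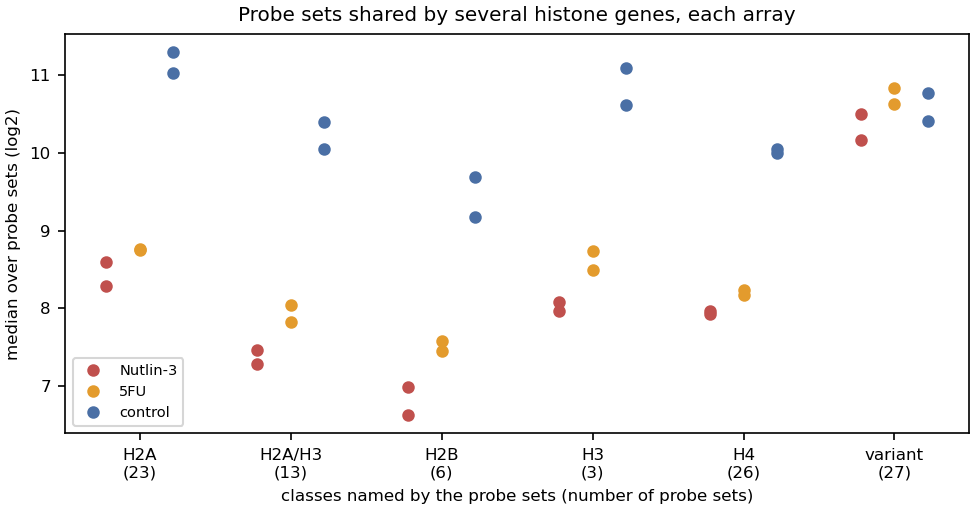
Median log2 value (y axis) over bright probe sets that name several histone genes, on each Nutlin-3, 5FU and control array, by the classes they name (x axis, number of probe sets in brackets; classes with 1 probe set are left out). In the 5 replication-dependent classes all drug arrays lie below both control arrays, as for H4 with 7.97, 7.92, 8.17 and 8.24 against 10.047 and 9.996. The variant medians overlap. Bright probe sets were taken by the mean over all 6 arrays, control included. Over all 52 shared H4 probe sets, bright or not, the median differences were -0.50 after Nutlin-3 and -0.32 after 5FU.

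The 6 divergent H2A and H2B pairs have annotated starts 194 to 245 bases apart, and their single-symbol differences from control are given side by side, without a test between partners. H2BC21 and H2AC20, 236 bases apart, both fell after Nutlin-3 (-1.36 for H2BC21 and -1.60 for H2AC20). H2AC14, 245 bases from H2BC14, was dim on its 1 probe set and differed by -0.13 after Nutlin-3 and -0.56 after 5FU, with intervals of -1.15 to 0.88 and -1.58 to 0.45. Its partner H2BC14 differed by -2.31 after Nutlin-3 and -2.30 after 5FU. H2AC15, 194 bases from H2BC15, differed by -0.38 after Nutlin-3 and 0.23 after 5FU, and H2BC15 by -1.64 after Nutlin-3 and -1.30 after 5FU. For H2AC25 and H2BC26, 230 bases apart, the differences were -0.95 and -0.20 after Nutlin-3 and -1.46 and 0.10 after 5FU. For H2AC1 and H2BC1, 215 bases apart, they were -0.17 and -0.18 after Nutlin-3 and -0.33 and -0.49 after 5FU. H2AC17 fell after Nutlin-3 (-1.59) and its partner H2BC17, 240 bases away, differed by -0.74 (adjusted p = 0.309), while after 5FU they differed by -1.06 for H2AC17 and -1.01 for H2BC17. Probe sets of different genes are not comparable in level, so only the differences are set side by side.

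The counts by genomic cluster and transcript type stand against 0.549% of all genes called lower after Nutlin-3 and 0.0513% after 5FU. The chromosome 1 genes of the HIST2 group numbered 5, and 3 of them fell after Nutlin-3 and 1 after 5FU, with medians of -1.36 after Nutlin-3 and -1.11 after 5FU. Of the 35 HIST1 genes of chromosome 6, 6 fell after Nutlin-3 and 3 after 5FU, with medians of -0.56 after Nutlin-3 and -0.56 after 5FU. None of the 3 HIST3 genes was called (0 by limma in each comparison). Of the 6 replication-dependent genes listed as able to make polyadenylated transcripts, 5 were measured. Of these, 2 fell after Nutlin-3 and 1 after 5FU, with medians of -1.07 after Nutlin-3 and -1.11 after 5FU. The other 38 had medians of -0.63 after Nutlin-3 and -0.55 after 5FU. With the filter at the median probe set, medians after Nutlin-3 and 5FU were -1.21 and -1.14 for 17 HIST1 genes. They were -1.48 and -1.25 for 4 HIST2 genes. For 4 genes of the polyadenylated list they were -1.49 and -1.36, and for 19 outside it -0.95 and -1.14. No difference between clusters or transcript types was tested.

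The variant histone genes chosen by symbol were not called after either drug (0 of 9 by limma). Their median differences were -0.34 after Nutlin-3 and -0.01 after 5FU. CENPA, a centromeric histone outside these 9, was called lower after Nutlin-3 and is given with the chaperone list. Of the 9, an unadjusted p below 0.05 was found for 4 after Nutlin-3 (44.4%) and 3 after 5FU (33.3%), against 9.48% and 10.1% of all genes. Both Nutlin-3 arrays lay below both control arrays for 6 (66.7%, against 17.3% of all genes) and above for 0 (against 16.4%). Both 5FU arrays lay below for 3 (33.3%, against 18.2%) and above for 1 (against 19.2%). Of 83 variant probe sets above the upper quartile, 19 (22.9%) had all 4 drug arrays below both controls, against 6.60% of all such probe sets. H2AX, the variant phosphorylated beside DNA breaks, read 8.06 and 8.20 after Nutlin-3, 8.08 and 8.16 after 5FU, and 8.74 and 8.72 in control. All drug arrays lay below both controls with close replicates, and the differences of -0.60 for Nutlin-3 and -0.61 for 5FU had adjusted p of 0.106 and 0.146. H2AZ1, which encodes H2A.Z found at promoters and enhancers, read 7.50 and 7.65 after Nutlin-3, 8.08 and 8.32 after 5FU, and 8.74 and 8.16 in control. H2AZ2, the second H2A.Z gene, read 8.68 and 8.96 after Nutlin-3, 9.24 and 9.47 after 5FU, and 9.50 and 9.07 in control. In both genes the Nutlin-3 arrays were below all the others and the 5FU arrays overlapped control (Nutlin-3 minus control -0.87 for H2AZ1 and -0.46 for H2AZ2, adjusted p = 0.184 and 0.517).

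H3-3B read 11.20 and 11.75 after Nutlin-3, 11.87 and 12.04 after 5FU, and 11.87 and 11.85 in control, on 2 probe sets. H3-3A read 8.80 and 9.11 after Nutlin-3, 9.08 and 9.30 after 5FU, and 9.31 and 8.76 in control. Nutlin-3 arrays were lowest for H3-3B, whereas all groups overlapped for H3-3A. MACROH2A2, a macro-domain histone, read 8.17 and 8.29 after Nutlin-3, 8.07 and 8.26 after 5FU, and 8.65 and 8.49 in control (-0.34 for Nutlin-3 and -0.41 for 5FU, adjusted p = 0.495 and 0.37). MACROH2A1 read 7.17 and 7.29 after Nutlin-3, 7.36 and 7.40 after 5FU, and 7.43 and 7.09 in control. Drug and control arrays separated for MACROH2A2 and overlapped for MACROH2A1. H1-10, a linker variant, read 7.43 and 7.54 after Nutlin-3, 7.41 and 7.26 after 5FU, and 7.84 and 7.66 in control, slightly lower on each drug array. H2AJ, an H2A variant that accumulates in senescent cells, read 5.95 and 5.70 after Nutlin-3, 5.63 and 5.67 after 5FU, and 5.54 and 5.78 in control, and each drug group overlapped control.

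Between the drugs, 0 of the 52 histone genes were called by limma, where 0.277% of all genes were called lower and 0.0103% higher in Nutlin-3-treated than in 5FU-treated cells (54 and 2 genes; 184 and 40 when arrays were centred on their medians). At an unadjusted p below 0.05, 8 of 52 were counted (15.4%), against 12.3% of all genes. The median of Nutlin-3 minus 5FU over the 43 replication-dependent genes was -0.00. Both Nutlin-3 arrays lay below both 5FU arrays for 11 of them (25.6%), against 23.9% of all genes, and above for 5, against 21% of all genes. For the 9 genes called after a drug the difference lay between -0.53 (H2AC17) and 0.09 (H1-4), and 8 of their 95% intervals lay inside a 2-fold change either way. Of all 43 replication-dependent genes, 30 had intervals inside that range. With the filter at the median probe set, 13 genes were called after a drug. Their differences between the drugs lay between -0.68 (H2BC15) and 0.51 (H2AC25), and 10 of the 13 intervals lay inside a 2-fold change. H2BC15 had an interval of -1.05 to -0.31 there (adjusted p = 0.137 in limma), with Nutlin-3 arrays below 5FU arrays. Over the 158 probe sets with several histone symbols, the untested median was -0.35. A missed call does not show that the drugs act alike.

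The 8 genes below that unadjusted threshold were H2AC15, H2AC17, H2AC25, H2BC18, H3-4, H2AZ1, H2AZ2 and H3-3B. H3-4 was 0.58 higher after Nutlin-3 than after 5FU (95% interval 0.30 to 0.86, adjusted p = 0.134). H2AZ1 and H2AZ2 differed by -0.63 (95% interval -1.13 to -0.13, adjusted p = 0.293) and -0.54 (-0.99 to -0.08, adjusted p = 0.318), and H3-3B by -0.48 (-0.94 to -0.01, adjusted p = 0.394). For all 8 genes, which were picked by their p, the arrays of the 2 drugs did not overlap, and no difference passed. Over all 52 histone genes, both Nutlin-3 arrays lay below both 5FU arrays for 15 (28.8%), against 23.9% of all genes. They lay above for 7, against 21% of all genes.

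Lists of genes chosen for histone gene transcription, histone mRNA processing and histone chaperones were described in the same way. Of 12 genes for histone gene transcription, 5 fell after Nutlin-3 and 0 after 5FU (2 at an unadjusted p below 0.05), and 4 were lower after Nutlin-3 than after 5FU. Of all genes, 0.549% were called lower after Nutlin-3, 0.0513% after 5FU and 0.277% between the drugs, and 10.1% had an unadjusted p below 0.05 after 5FU, so that 2 of 12 is near the background. CCNE2, cyclin E2, read 4.16 and 4.59 after Nutlin-3, 8.46 and 9.15 after 5FU, and 7.43 and 6.93 in control. The groups did not overlap, and Nutlin-3 arrays were lowest and 5FU arrays highest (-2.81 against control, adjusted p = 0.0202; 1.63 for 5FU, adjusted p = 0.121; -4.43 between the drugs, adjusted p = 0.00899). CDC25A, a phosphatase that activates CDK2, read 5.95 and 6.15 after Nutlin-3, 8.52 and 8.65 after 5FU, and 8.38 and 7.85 in control (-2.53 between the drugs, adjusted p = 0.012). CCNE1, cyclin E1, read 7.27 and 7.69 after Nutlin-3, 8.88 and 9.18 after 5FU, and 8.80 and 8.66 in control (-1.55 between the drugs, adjusted p = 0.0443).

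CDK2, the kinase that cyclin E activates, read 7.84 and 8.12 after Nutlin-3, 9.30 and 9.64 after 5FU, and 9.17 and 9.06 in control. Its difference between the drugs was -1.49 (adjusted p = 0.0391), and the Nutlin-3 arrays lay below all others. E2F1, an S-phase transcription factor and the other called member of that list, fell by 0.82 after Nutlin-3 (adjusted p = 0.0455). It was on the list from the start and was named here after its value was seen. NPAT, the coactivator of histone genes, read 6.02 and 6.58 after Nutlin-3, 6.93 and 7.39 after 5FU, and 7.35 and 7.03 in control. CASP8AP2, a component of histone locus bodies, read 5.13 and 5.87 after Nutlin-3, 6.76 and 7.05 after 5FU, and 6.74 and 6.01 in control. Nutlin-3 arrays were lowest for both, and neither was called (between the drugs NPAT -0.86 with adjusted p = 0.242 and CASP8AP2 -1.41 with adjusted p = 0.163).

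Of 24 genes for the 3′ processing, export and decay of histone mRNA, 0 were called by limma in any comparison (7 after Nutlin-3, 4 after 5FU and 5 between the drugs at an unadjusted p below 0.05, or 29.2%, 16.7% and 20.8%, against 9.48%, 10.1% and 12.3% of all genes). SLBP, the stem-loop binding protein, read 8.60 and 8.67 after Nutlin-3, 9.24 and 9.41 after 5FU, and 9.49 and 9.05 in control. Its Nutlin-3 arrays lay below all others (-0.64 against control, adjusted p = 0.255, and -0.69 against 5FU, adjusted p = 0.188), and its 5FU arrays overlapped control.

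The list of histone chaperones and assembly factors held 28 genes, among them the histone CENPA, which is not a chaperone. Of the 28, 5 fell after Nutlin-3, CENPA included, and 0 after 5FU (5 at an unadjusted p below 0.05). Lower after Nutlin-3 than after 5FU were 3. These counts stand against 0.549%, 0.0513% and 0.277% of all genes called lower, and 10.1% at the unadjusted threshold after 5FU. ASF1B, a chaperone of H3 and H4, read 7.48 and 7.60 after Nutlin-3, 8.95 and 9.05 after 5FU, and 8.86 and 8.98 in control. MCM2, a helicase subunit that also binds H3 and H4, read 8.54 and 8.62 after Nutlin-3, 9.90 and 9.90 after 5FU, and 10.06 and 9.79 in control. For both genes the 5FU and control arrays overlapped and the Nutlin-3 arrays lay more than 1 log2 unit lower (ASF1B -1.38 and MCM2 -1.34 against control, adjusted p = 0.0157 and 0.0202; ASF1B -1.46 and MCM2 -1.32 against 5FU, adjusted p = 0.0161 and 0.0257). CHAF1A, the large subunit of chromatin assembly factor 1, read 6.57 and 6.69 after Nutlin-3, 7.44 and 7.63 after 5FU, and 7.84 and 7.79 in control (-1.18 against control, adjusted p = 0.0235). CHAF1B, a partner subunit, read 6.20 and 6.40 after Nutlin-3, 7.67 and 8.14 after 5FU, and 7.68 and 7.46 in control (-1.60 against 5FU, adjusted p = 0.0443).

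HJURP, which loads the centromeric histone CENPA, read 6.24 and 6.48 after Nutlin-3, 7.96 and 8.12 after 5FU, and 8.45 and 7.77 in control (-1.75 against control, adjusted p = 0.0358). CENPA itself fell by 1.04 after Nutlin-3 (adjusted p = 0.039), differed by -0.72 after 5FU (adjusted p = 0.153), and was named after its value was seen. The medians of the 3 lists were -0.85, -0.26 and -0.48 after Nutlin-3 and 0.03, -0.06 and 0.02 after 5FU, in the order transcription, processing and chaperones.

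**Figure D5:**
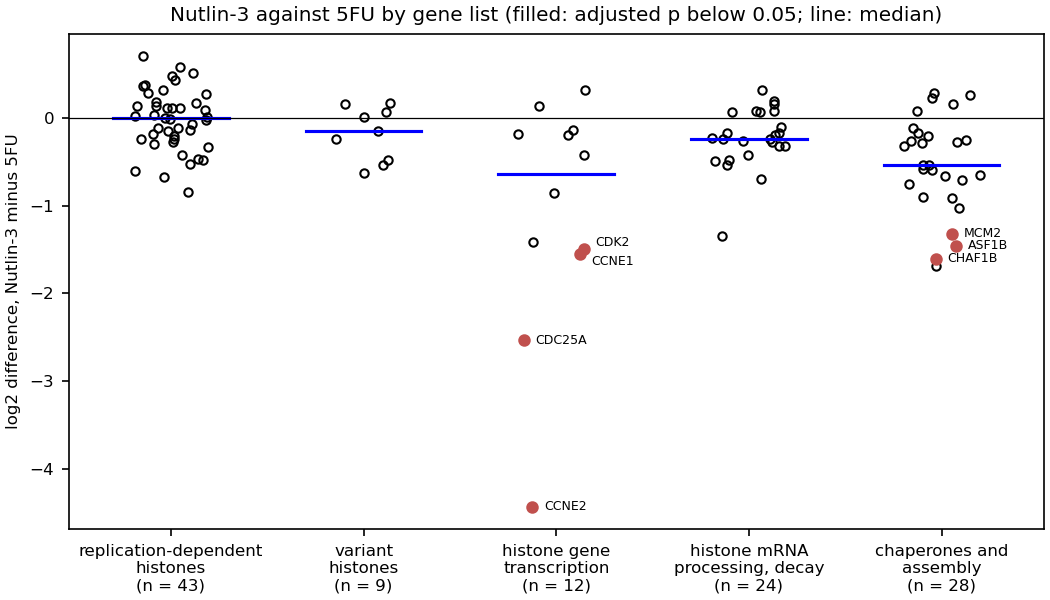
Log2 difference between Nutlin-3 and 5FU (y axis) of each gene, by gene list (x axis, number of genes in brackets); lines are medians, and filled, named points have an adjusted p below 0.05. The replication-dependent histone genes centre on -0.00 with 0 called, while 4 transcription genes down to -4.43 (CCNE2) and 3 chaperones are called lower after Nutlin-3.

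The calls rest on few arrays. Without control array 1, which was the higher control for 29 of the 43 replication-dependent genes, 0 histone genes were called after either drug, although the differences of the called genes kept between -2.35 and -1.06. For Nutlin-3, 0 were called without its array 2, 2 without its array 1, 3 without either 5FU array and 8 without control array 2. For 5FU, 4 were called without either Nutlin-3 array, 1 without control array 2 and 0 without either 5FU array. With 2 arrays a group the smallest exact two-sided permutation p for a single gene is 0.333.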

How the data were processed

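The authors deposited log2 expression values per probe set of Affymetrix Human Exon 1.0 ST arrays, made with RMA per the submitters' processing notes; neither its version nor the array's genome build was stated. RMA removes background, puts the arrays on a common distribution and combines the probes of a probe set; without counts or detection calls, precision is set by the number of arrays. The table held 1411399 probe sets on 6 arrays with 0 missing values. The platform annotation named 1 gene symbol for 357604 probe sets, several for 15322 and none for 1038473. Symbols were updated through the RefSeq gene table of GRCh38.p14: of 19560, 16472 were current, 2968 were matched by synonym and 120 were kept.

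A gene's value was the mean log2 value of all its probe sets with 1 symbol, at least 1, without a brightness filter, which kept 19488 genes. A second setting used probe sets above the median of all probe-set means (4.73), at least 2 a gene, for 17841 genes. Near-identical histone copies may share signal, and probe sets with several symbols are described apart. The 3 groups of 2 arrays were fitted in 1 model in limma 3.58.1 (R 4.3.3; lmFit and eBayes, 3 residual degrees of freedom), with Benjamini-Hochberg adjustment over all genes. The steps were tested on simulated data. Tables and figures used Python 3.11.15, pandas 2.3.3, numpy 2.4.6 and matplotlib 3.10.9.

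Members and lists (histone gene transcription, histone mRNA processing, histone chaperones, genes with polyadenylated transcripts, cell type markers) were chosen with earlier results of these data known. Values on every array are given for the variants, up to 4 members of each class with the largest mean difference among those brighter than the median probe set, 2 of each class with the smallest at any brightness, up to 4 called members of each other list per comparison, and CDKN1A, MDM2, SLBP, NPAT and CASP8AP2; further members were named from their values. Alternatives varied the filter, the minimum number of probe sets, the median in place of the mean, centring of arrays, variance model, arrays in the fit, replicate block and each array left out. Sample labels gave the groups and the replicate numbers.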

Additional observations from a re-analysis of the deposited data

Results flagged for a closer look

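In 7 genes of the lists for histone gene transcription and histone chaperones, the responses to Nutlin-3 and to 5FU differed. The test was limma's comparison of Nutlin-3 against 5FU, and both responses were set against the same control arrays. All 7 were lower after Nutlin-3, on both of its arrays. The log2 difference between the drugs was -4.43 for CCNE2 (adjusted p = 0.00899), -2.53 for CDC25A (adjusted p = 0.012), -1.55 for CCNE1 (adjusted p = 0.0443) and -1.49 for CDK2 (adjusted p = 0.0391). These 4 cell-cycle genes are on the list for histone gene transcription. It was -1.6 for CHAF1B (adjusted p = 0.0443), -1.46 for ASF1B (adjusted p = 0.0161) and -1.32 for MCM2 (adjusted p = 0.0257), which act in histone assembly. None of the 52 histone genes met this criterion in limma (0 called, 8 at an unadjusted p below 0.05).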

How the results depend on the processing

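The main setting called 149, 42 and 56 genes for Nutlin-3 against control, 5FU against control and Nutlin-3 against 5FU, and 9, 4 and 0 histone genes. In that order, all genes called were 308, 111 and 160 with probe sets above the upper quartile, 70, 15 and 27 with the median over probe sets, 362, 157 and 224 with arrays centred on their medians, and 217, 80 and 113 with the filter at the median probe set and at least 2 a gene. Histone genes called were 16 and 15 against control with the upper quartile, 15 and 11 with centring, and 12 and 9 with the median filter (12 and 7 with at least 1 probe set a gene, chosen after seeing the data). The upper quartile moved the median difference of the histone genes to -1.22 after Nutlin-3 and -1.17 after 5FU over the 30 genes left. Trend and robust variances called 32 genes between the drugs, and a fit of only the 4 arrays compared called 32 genes and 3 histone genes after Nutlin-3. The cause of these shifts was not tested.

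Replicate numbers are not stated to mark a shared culture or day, and same-numbered deviations correlated at 0.60 between Nutlin-3 and 5FU, -0.54 between Nutlin-3 and control and -0.49 between 5FU and control. With the replicate block, 0 genes and 0 histone genes were called in each of the 3 comparisons. A crossed pairing with the control numbers exchanged, chosen after seeing the data, called 1478, 1597 and 2476 genes and 27, 25 and 7 histone genes. Leaving out 1 array at a time, where a group of 1 array is assumed to vary like the others, called 0 to 40 genes and 0 to 8 histone genes after Nutlin-3, 0 to 31 and 0 to 4 after 5FU, and 0 to 41 and 0 to 0 between the drugs. No called value changed sign under any setting run. Of the single-gene values and counts recomputed, 2426 kept their side of the threshold or their size within the spread, 131 newly passed, 213 no longer passed and 194 moved. Low and single probe sets limit the H3 and H4 genes most.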
